A study of Mus musculus with 5 samples.

Results

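The genes described here encode adhesion proteins of the contacts between axons and glia: Cntn1, Cntn2, Cntnap1, Nfasc, Nrcam, Cadm1, Cadm2, Cadm4, Ncam1 and L1cam. These 10 genes were chosen by name, as adhesion genes of the node, the paranode and the internode, and every probe set that names 1 of them was taken. The array carried 29 such probe sets for 9 of the genes, of 34945 probe sets that name 1 of 18193 genes. Cadm2 is not analysed here, since none of the annotated probe sets names it.

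RNA was measured on Affymetrix GeneChip mouse arrays in optic nerves of C57BL/6 mice aged P35 to P45, kept for 3 days in organotypic culture with LY294002, an inhibitor of PI3K. L-LY29 comprised 3 arrays of nerves given 0.5 µM, and H-LY29 comprised 2 arrays of nerves given 50 µM. The L-LY29 dose is that of the sample labels. The study's text gives a different concentration for nerves of this age, and the sources do not settle which was used for these arrays. LY294002 in the sample titles and LY295002 in the treatment fields were read as 1 compound. Per the methods, the nerves were dissected with the retina intact and cleaned of the arachnoid and of attached tissue before culture. Arrays of untreated nerves are not analysed here, so every difference is L-LY29 minus H-LY29, and a value that is higher at one dose can equally be lower at the other. The number of nerves or mice behind each array is not stated per array, so the p-values rest on array-to-array spread alone, which may be technical. In this bulk tissue, fewer cells of a type and less RNA per cell cannot be told apart.

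Myelinated axons are held to their glia by different sets of adhesion proteins along their length. At the paranode, loops of the myelin sheath are joined to the axon by contactin 1 and Caspr, the products of Cntn1 and Cntnap1, which meet the glial form of neurofascin. At the node of Ranvier, other forms of neurofascin and NrCAM are tied through ankyrin G to voltage-gated sodium channels. At the juxtaparanode, contactin 2 sits on both membranes and gathers potassium channels with Caspr2. Along the internode, the nectin-like Cadm proteins span the gap between axon and sheath, with Cadm4 mainly on the glial side. Ncam1 and L1cam encode more widely used adhesion molecules of axons, glial progenitors and astrocytes.

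Across the 45101 probe sets of the array, which are not independent replicates, Pearson's r was 0.990 to 0.995 between arrays of the same dose and 0.882 to 0.892 between doses. The L-LY29 arrays had medians of 5.33 to 5.35 log2 units, against 5.54 to 5.56 for the H-LY29 arrays. Poly-A control RNAs, which are added before labelling, averaged 9.97 to 10.45 in L-LY29 and 3.17 in H-LY29, where none of their 24 probe sets averaged above 4.14. These added controls thus differed between the doses as well. Differences by dose and by preparation of the arrays cannot be told apart here, which holds for every comparison below. The 3′ probe set of actin exceeded its 5′ probe set by 0.39 to 0.48 in L-LY29, against 0.84 to 0.99 in H-LY29. Markers of myelinating oligodendrocytes (10 of 10 above the filter on dim probe sets) averaged 12.11 to 12.21 in L-LY29, against 12.03 to 12.13 in H-LY29, as the labelled tissue should show. Of 9 markers of photoreceptors and other retina, 2 lay above the filter. Of 11 ocular surface epithelium markers, 11 lay above it, with a mean of 7.41 to 9.51 in L-LY29, against 4.13 to 4.65 in H-LY29. Their part in the results below was not tested.

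The adhesion genes differed from each other in direction between the doses. By its brightest probe set, 2 of the 8 genes that could be tested were higher in L-LY29 than in H-LY29, 4 were lower and 2 did not pass. Cadm4 and Cntn1 were the higher genes, and Ncam1, Cntn2, Nfasc and Cadm1 the lower ones. This share lay near that of all 12935 genes tested, of which 73.8% were called, 27.1% higher and 46.6% lower (limma, Benjamini-Hochberg adjusted over all genes). Of the called genes 36.8% were higher on the deposited values, 51.6% after quantile normalization and 47.2% with equal array medians. The median difference of the 8 genes was −0.50 log2 units (range −3.01 to 2.28), against −0.26 over all genes (quartiles −1.19 to 0.41). It was −0.23 after quantile normalization and −0.29 with equal array medians, which moved that of all genes to 0.05 and −0.05. Equal array medians shift every difference by the same amount, so that scaling cannot change the gap between these medians. Over probe sets, 26 of the 29 passed the filter, a mean over the 5 arrays of at least 4.77 log2 units. Of these 6 were higher, 15 lower and 5 did not pass, where 72.8% of all 23456 probe sets were called, 29.0% higher and 43.7% lower. The arrays of the doses did not overlap at 23 of the 26, against 82.0% of all probe sets.

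**Figure D1:**
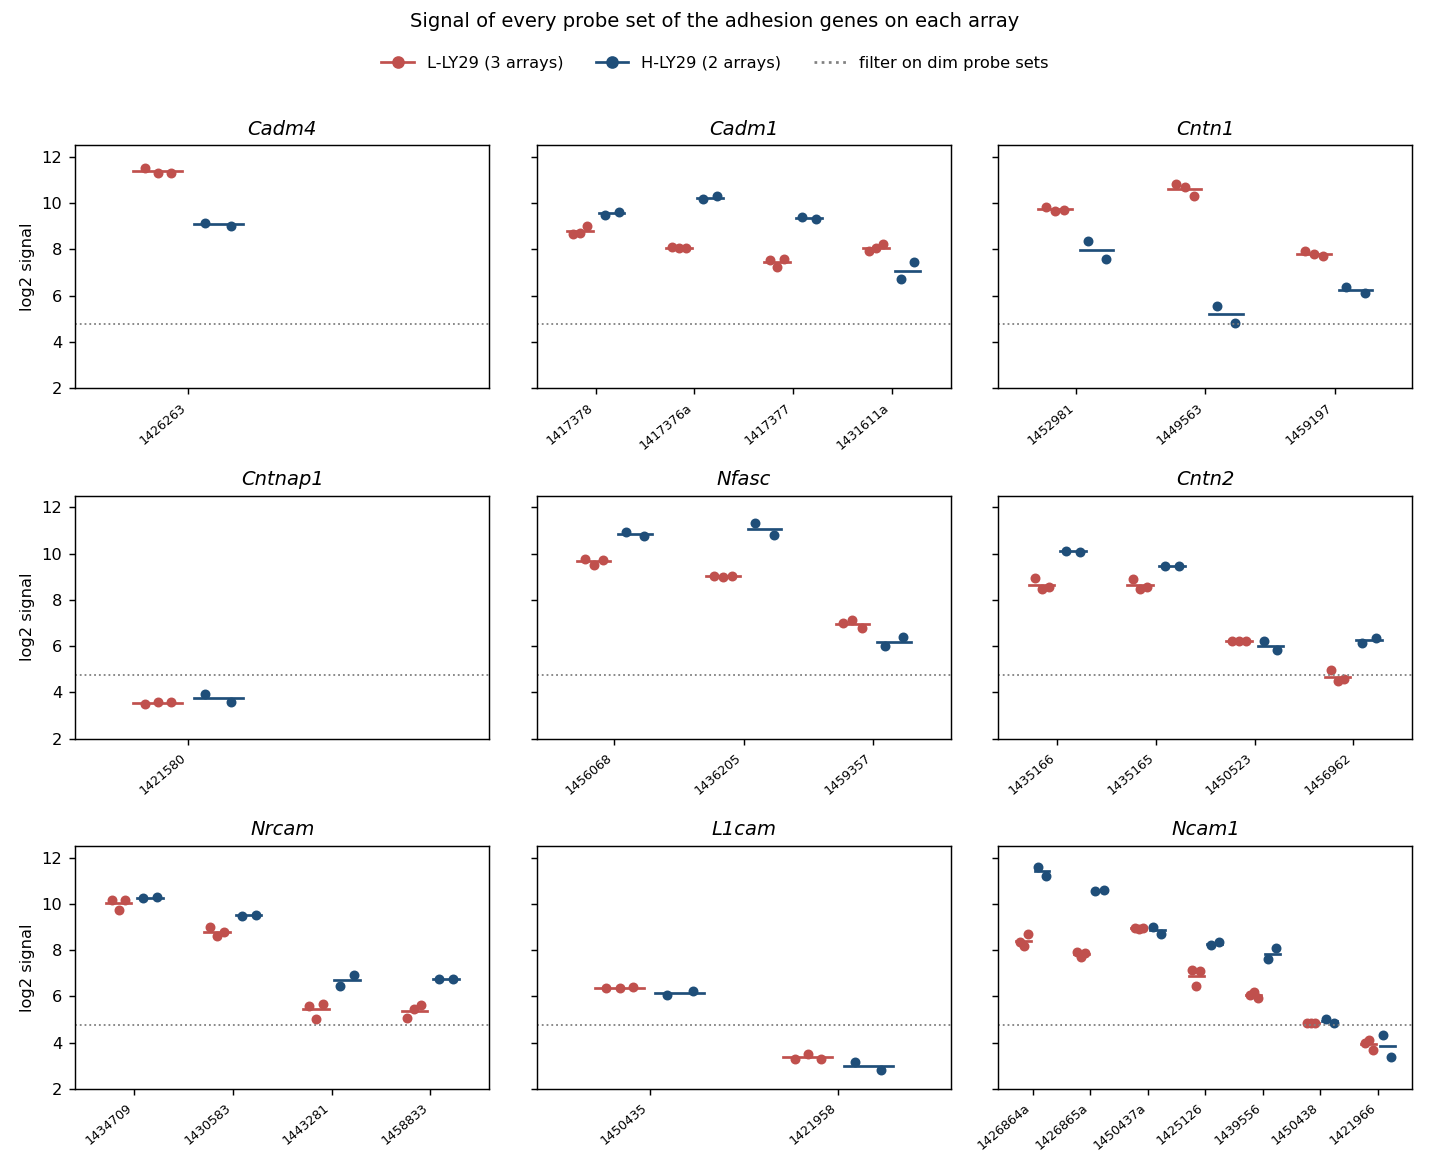
Log2 signal of all 29 probe sets of 9 adhesion genes on each array, with L-LY29 (3 arrays, red) to the left of H-LY29 (2 arrays, blue). Points are arrays, short lines are dose means, the dotted line is the filter at 4.77, and the horizontal axis names the probe sets. Cadm4 and the 3 probe sets of Cntn1 lie higher in L-LY29, the brightest Ncam1 probe sets lie lower, and Cntnap1 lies under the filter.

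The 250 bases before a RefSeq start site are printed for 4 of the genes, both genes that were higher in L-LY29 and 2 that were lower, so that the sequence can be read beside the direction. They are from RefSeq (GRCm38.p6), 5′ to 3′ on the strand of the gene, with the GC box GGGCGG or its complement CCGCCC in capitals. Promoters were matched for 7 of the 10 genes, and for genes with several starts in the promoter table the most upstream of these is shown. For Nfasc that start lies 34522 bases inside the annotated gene, so its window is not the region before the first start of the gene, and for Cntn2 it lies 311 bases inside. The windows are chr7:24481773-24482022 (+) for Cadm4, chr15:92050915-92051164 (+) for Cntn1, chr1:132542941-132543190 (−) for Cntn2 and chr1:132707327-132707576 (−) for Nfasc.
Cadm4: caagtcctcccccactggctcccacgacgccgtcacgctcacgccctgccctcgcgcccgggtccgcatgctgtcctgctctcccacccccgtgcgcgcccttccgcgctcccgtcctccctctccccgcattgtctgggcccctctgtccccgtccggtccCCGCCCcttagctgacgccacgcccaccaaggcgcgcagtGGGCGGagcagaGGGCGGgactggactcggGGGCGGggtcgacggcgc
Cntn1: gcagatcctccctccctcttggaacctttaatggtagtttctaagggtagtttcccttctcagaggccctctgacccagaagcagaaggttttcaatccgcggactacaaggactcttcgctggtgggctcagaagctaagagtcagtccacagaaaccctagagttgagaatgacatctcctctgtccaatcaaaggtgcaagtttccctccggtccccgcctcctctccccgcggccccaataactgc
Cntn2: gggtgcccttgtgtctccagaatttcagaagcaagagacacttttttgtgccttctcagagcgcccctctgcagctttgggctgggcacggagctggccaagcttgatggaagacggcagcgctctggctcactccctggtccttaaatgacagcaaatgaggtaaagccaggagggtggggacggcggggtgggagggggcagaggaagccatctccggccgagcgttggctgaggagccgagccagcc
Nfasc: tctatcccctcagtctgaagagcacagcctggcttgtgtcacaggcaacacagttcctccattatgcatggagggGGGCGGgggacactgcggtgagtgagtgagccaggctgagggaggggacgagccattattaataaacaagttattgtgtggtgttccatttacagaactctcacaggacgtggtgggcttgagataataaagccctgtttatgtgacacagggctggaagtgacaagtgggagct
Cadm4 had 4 GC boxes, which begin 88, 48, 36 and 18 bases before the start, and 30 CpG dinucleotides, more than 94.4% of promoters. Cntn1 had none and 7 CpG, Cntn2 had none and 10 CpG, and Nfasc had 1 box, 175 bases before its start, and 4 CpG. On either strand, a GC box was present in 33.0% of 27025 promoters of this length, ACAAAG (a SOX motif) in 16.5% and GTAAACA (a FOXO motif) in 3.06%. Neither of the last motifs occurred in any of the 11 windows of the adhesion genes. A match describes letters only, and genes of either direction were found with and without a GC box.

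Among the internodal genes, Cadm4 and Cadm1 differed in direction. Cadm4 encodes the glial partner that binds axonal Cadm proteins along the internode. Its 1 probe set gave 11.50, 11.33 and 11.30 log2 units on the L-LY29 arrays, against 9.16 and 9.03 on the H-LY29 arrays. All L-LY29 arrays lay above both H-LY29 arrays. The signal was 4.87-fold higher in L-LY29, a difference of 2.28 (SE 0.085, limma adjusted p = 4.62e-05 over all probe sets).

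Cadm1 encodes a nectin-like protein found on axons and on many other cells. Its brightest probe set, 1417378_at, gave 8.67, 8.73 and 9.04 in L-LY29 and 9.50 and 9.62 in H-LY29. All L-LY29 arrays lay below both H-LY29 arrays, by a mean of −0.75 (SE 0.13, adjusted p = 0.00455). The call was lost without H-LY29 replicate 2 (−0.69, adjusted p = 0.0643). With an H-LY29 array left out, the lone array of that dose is assumed to vary like the L-LY29 arrays. A larger difference was measured at 1417376_a_at, with 8.10, 8.04 and 8.08 in L-LY29 and 10.20 and 10.29 in H-LY29 (−2.17, SE 0.066, adjusted p = 3.88e-05). It was the most precise of the Cadm1 probe sets, with an SD of 0.028 over the L-LY29 arrays. The third, 1417377_at, gave 7.53, 7.23 and 7.58 in L-LY29 and 9.41 and 9.31 in H-LY29 (−1.92, adjusted p = 1.76e-04). Probe set 1431611_a_at went the other way, with 7.92, 8.05 and 8.25 in L-LY29 and 6.73 and 7.44 in H-LY29 (0.99, SE 0.24, adjusted p = 0.0144). This call was lost without H-LY29 replicate 1 (0.63, adjusted p = 0.0548) or without L-LY29 replicate 3 (0.90, adjusted p = 0.0515).

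Of the paranodal genes, Cntn1 was higher in L-LY29 at every probe set, Nfasc was mostly lower, and Cntnap1 was too dim to test. Cntn1 encodes contactin 1, a GPI-anchored protein that axons need for the paranodal junction and that oligodendrocyte lineage cells also make. Its brightest probe set, 1452981_at, gave 9.85, 9.67 and 9.72 in L-LY29 and 8.35 and 7.59 in H-LY29, a difference of 1.77 (SE 0.23, adjusted p = 0.00151). Probe set 1449563_at gave 10.82, 10.72 and 10.31 in L-LY29 and 5.57 and 4.82 in H-LY29, a difference of 5.42 (SE 0.28, adjusted p = 7.98e-05) or 42.7-fold. Probe set 1459197_at gave 7.95, 7.79 and 7.72 in L-LY29 and 6.39 and 6.13 in H-LY29, a difference of 1.56 (SE 0.13, adjusted p = 3.07e-04). At each of them all L-LY29 arrays lay above both H-LY29 arrays, and H-LY29 replicate 2 was the lowest. The difference of 5.42 was the largest, in either direction, among the probe sets of the adhesion genes, and on H-LY29 replicate 2 this probe set lay at 4.82, just above the filter value of 4.77. All 3 calls held with each array left out in turn, with a range of 1.40 to 2.15 for the brightest one.

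Cntnap1 encodes Caspr, the axonal partner of contactin 1, made in the cell bodies of neurons. Its only probe set, 1421580_at, gave 3.48, 3.57 and 3.57 in L-LY29 and 3.94 and 3.57 in H-LY29. These values overlap, lie below the filter of 4.77 and were not tested.

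Nfasc encodes the neurofascins, of which the glial form lies at the paranode and the axonal forms at the node. Probe set 1456068_at gave 9.77, 9.49 and 9.74 in L-LY29 and 10.93 and 10.78 in H-LY29 (−1.19, SE 0.11, adjusted p = 4.43e-04). Probe set 1436205_at gave 9.04, 8.99 and 9.03 in L-LY29 and 11.32 and 10.79 in H-LY29 (−2.03, SE 0.16, adjusted p = 2.68e-04). All L-LY29 arrays lay below both H-LY29 arrays at these brighter probe sets, 2.28-fold and 4.10-fold by the means. The third, 1459357_at, had the opposite direction, with 6.99, 7.13 and 6.79 in L-LY29 and 5.99 and 6.38 in H-LY29 (0.79, SE 0.17, adjusted p = 0.0101). This last call was lost without H-LY29 replicate 1 (0.59, adjusted p = 0.0671). The annotation used here does not tie a probe set to the glial or the axonal form.

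**Figure D2:**
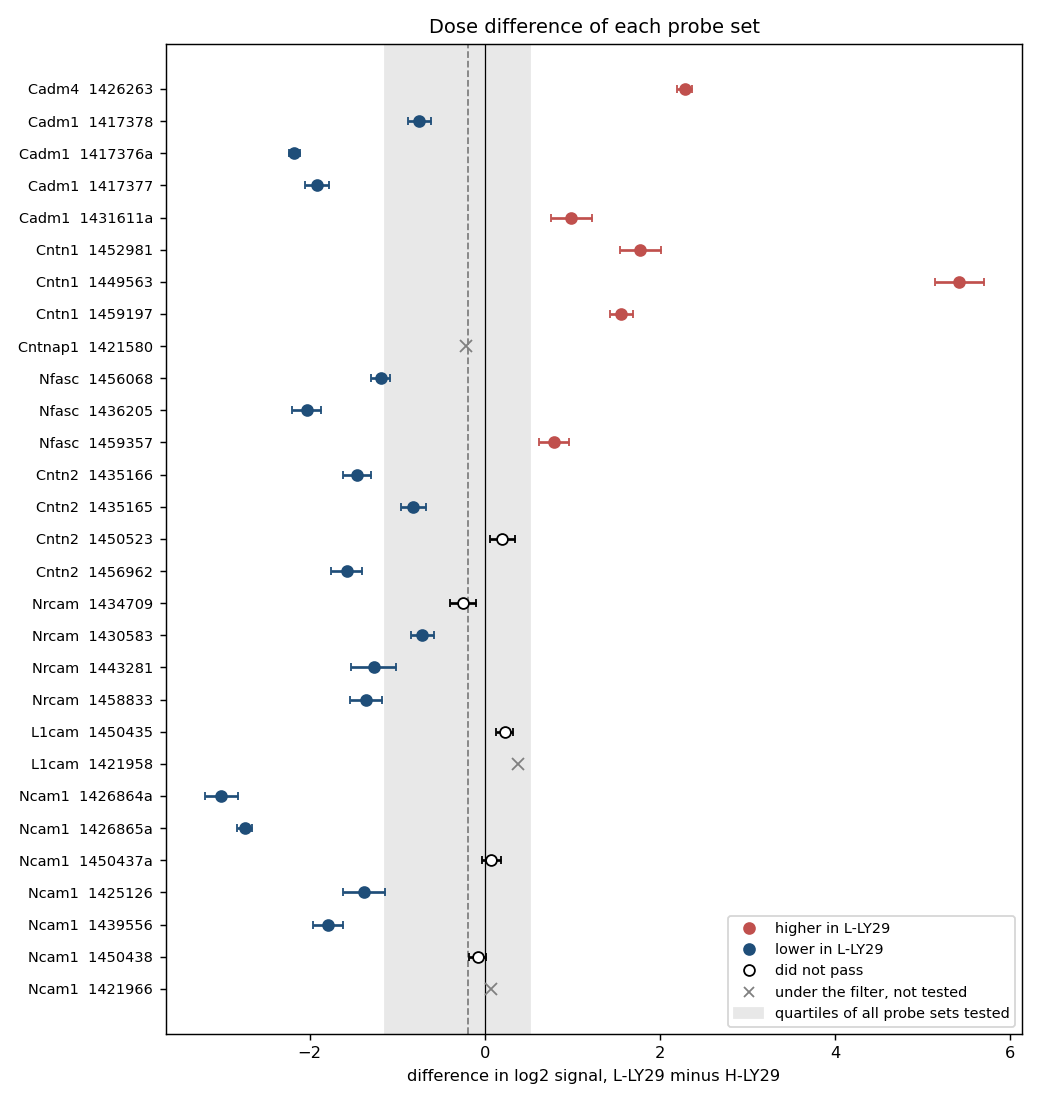
Difference in log2 signal between the doses, L-LY29 minus H-LY29, for all 29 probe sets, with the standard error of the limma fit (3 and 2 arrays). Red is higher and blue lower in L-LY29, open points did not pass, crosses lay under the filter and were not tested, and the grey band spans the quartiles of all probe sets tested (−1.14 to 0.52, dashed median −0.20). Cntn1 reaches 5.42 and Ncam1 −3.01, and Nfasc and Cadm1 have points on both sides of 0.

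Nrcam, whose product is a partner of neurofascin at the node, did not pass at its brightest probe set and was lower in L-LY29 at its other 3. Probe set 1434709_at gave 10.16, 9.75 and 10.16 in L-LY29 and 10.25 and 10.30 in H-LY29 (−0.25, SE 0.15, adjusted p = 0.186). Probe set 1430583_at gave 8.99, 8.60 and 8.78 in L-LY29 and 9.49 and 9.52 in H-LY29 (−0.71, SE 0.13, adjusted p = 0.00483). At both, L-LY29 replicate 2 was the lowest array and the doses did not overlap. Probe set 1443281_at gave 5.60, 5.04 and 5.68 in L-LY29 and 6.47 and 6.95 in H-LY29 (−1.27, adjusted p = 0.00785). Probe set 1458833_at gave 5.08, 5.46 and 5.62 in L-LY29 and 6.76 and 6.74 in H-LY29 (−1.36, adjusted p = 0.00165). The L-LY29 arrays again lay below both others. The call at 1430583_at was lost without H-LY29 replicate 1 (adjusted p = 0.0575) or replicate 2 (0.0628), and that at 1443281_at without H-LY29 replicate 2 (0.0886). As a gene, Nrcam passed where the mean of its probe sets (−0.90, adjusted p = 0.00181) or its second brightest one (−0.71, adjusted p = 0.00445) stood for it.

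At the juxtaparanode, Cntn2 was lower in L-LY29 at 3 of its 4 probe sets. It encodes contactin 2, also called TAG-1, which oligodendrocytes and some axons carry. Probe set 1435166_at gave 8.94, 8.46 and 8.54 in L-LY29 and 10.13 and 10.08 in H-LY29, a 2.74-fold lower mean in L-LY29 (−1.46, SE 0.16, adjusted p = 7.89e-04). Probe set 1435165_at gave 8.90, 8.47 and 8.57 in L-LY29 and 9.47 and 9.46 in H-LY29 (−0.82, SE 0.14, adjusted p = 0.00452). L-LY29 replicate 1 was the highest of its dose at both, yet below each H-LY29 array. The call at 1435165_at was lost without H-LY29 replicate 1 (adjusted p = 0.0616) or replicate 2 (0.0601). Probe set 1456962_at gave 4.96, 4.49 and 4.60 in L-LY29 and 6.15 and 6.37 in H-LY29 (−1.57, adjusted p = 8.59e-04). It passed the filter only through H-LY29, since its L-LY29 mean of 4.68 lies under 4.77. At 1450523_at all L-LY29 arrays and H-LY29 replicate 1 held the same value, 6.21, and H-LY29 replicate 2 held 5.82 (0.20, adjusted p = 0.261). Such ties were frequent on the array, at 1940 to 8963 probe sets for a pair of same-dose arrays and 3206 to 3347 for a pair from both doses. This probe set passed after quantile normalization (0.60, adjusted p = 0.00853), with equal array medians (0.41, adjusted p = 0.0439) and without H-LY29 replicate 1 (0.39, adjusted p = 0.00337), where the remaining L-LY29 values have no spread of their own.

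Of the more general adhesion genes, Ncam1 had the largest fall in L-LY29, and L1cam did not pass. Ncam1 encodes the neural cell adhesion molecule, which binds itself between cells and, with polysialic acid attached, marks migrating progenitors. Its brightest probe set, 1426864_a_at, gave 8.34, 8.20 and 8.68 in L-LY29 and 11.61 and 11.23 in H-LY29 (−3.01, SE 0.19, adjusted p = 1.34e-04). Probe set 1426865_a_at gave 7.90, 7.72 and 7.86 in L-LY29 and 10.54 and 10.60 in H-LY29 (−2.74, SE 0.083, adjusted p = 3.88e-05). By their means the L-LY29 signal was 8.07-fold and 6.70-fold lower, with every L-LY29 array below both H-LY29 arrays. Probe set 1439556_at gave 6.06, 6.17 and 5.94 in L-LY29 and 7.62 and 8.08 in H-LY29 (−1.79, adjusted p = 4.86e-04). Probe set 1425126_at gave 7.14, 6.44 and 7.11 in L-LY29 and 8.22 and 8.33 in H-LY29 (−1.38, adjusted p = 0.00451). At the last one L-LY29 replicate 2 was the lowest, and the call was lost without H-LY29 replicate 1 (adjusted p = 0.0595) or replicate 2 (0.0693).

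The other Ncam1 probe sets did not pass or were too dim. Probe set 1450437_a_at gave 8.95, 8.93 and 8.95 in L-LY29 and 9.02 and 8.72 in H-LY29 (0.07, SE 0.11, adjusted p = 0.558). Probe set 1450438_at gave 4.84 on each L-LY29 array and 5.01 and 4.84 in H-LY29 (−0.083, adjusted p = 0.470). The doses overlap at both. The first passed, higher in L-LY29, after quantile normalization (0.47, adjusted p = 0.00991) and without H-LY29 replicate 1 (0.23, adjusted p = 0.00888), and the second passed, lower in L-LY29, without H-LY29 replicate 2 (−0.17, adjusted p = 0.00989), again with no spread among the L-LY29 values. The last, 1421966_at, lay under the filter at 3.98, 4.12 and 3.68 in L-LY29 and 4.32 and 3.38 in H-LY29.

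L1cam encodes an adhesion molecule of growing and unmyelinated axons. Probe set 1450435_at gave 6.37, 6.37 and 6.42 in L-LY29 and 6.08 and 6.23 in H-LY29, a difference of 0.23 (SE 0.096, adjusted p = 0.0845). The doses did not overlap, yet the difference missed the threshold. It passed after quantile normalization (0.65, adjusted p = 0.00234), with equal array medians (0.44, adjusted p = 0.0138), without the intensity trend (adjusted p = 0.0499) and without H-LY29 replicate 1 (0.15, adjusted p = 0.0423) or replicate 2 (0.31, adjusted p = 0.0108). Probe set 1421958_at lay under the filter, at 3.31, 3.52 and 3.31 in L-LY29 and 3.17 and 2.84 in H-LY29.

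Probe sets of 1 gene can report different ends or splice forms of its transcripts, so the ratio of each probe set to the brightest one of the same gene was compared between doses. Of 18 such ratios of the adhesion genes 15 differed between the doses, where 78.5% of 10521 ratios of all genes did. Ratios of 1 gene share its brightest probe set, so they are not separate results. For Cntn1, 1449563_at over 1452981_at was higher in L-LY29 by 3.64 (SE 0.16, adjusted p = 1.50e-06), whereas 1459197_at over 1452981_at did not pass (−0.22, SE 0.17, adjusted p = 0.283), except without H-LY29 replicate 1 (−0.46, adjusted p = 0.0181). For Ncam1, 1450437_a_at over 1426864_a_at was higher in L-LY29 by 3.09 (SE 0.15, adjusted p = 2.18e-06), while 1450437_a_at itself did not pass. Probe set 1450438_at held 4.84 on all arrays but 1, near the filter of 4.77, so its ratio (2.93) restates the difference of 1426864_a_at and adds no measurement. For Cntn2, 1450523_at held 6.21 on all arrays but 1, so its ratio (1.65) largely restates the difference of 1435166_at. The Ncam1 pair 1426865_a_at and 1426864_a_at did not pass (0.27, SE 0.18, adjusted p = 0.195). For Nfasc, 1459357_at over 1456068_at was higher in L-LY29 by 1.98 (SE 0.23, adjusted p = 1.39e-04), and for Cadm1, 1431611_a_at over 1417378_at by 1.74 (SE 0.19, adjusted p = 9.24e-05). Nfasc and Cadm1 were the adhesion genes with probe sets called in both directions, as were 43.3% of the 4197 genes of the array with 2 or more called probe sets. The ratio of 1439556_at for Ncam1 was 1.22 higher (adjusted p = 0.00651) and lost its call without H-LY29 replicate 1 (0.80, adjusted p = 0.0807). The 3′ excess of the actin and Gapdh control probe sets was higher in H-LY29 on every array, at −0.15 to −0.092 in L-LY29, against 0.65 to 0.73 in H-LY29 for Gapdh, and its part in these ratios was not tested.

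**Figure D3:**
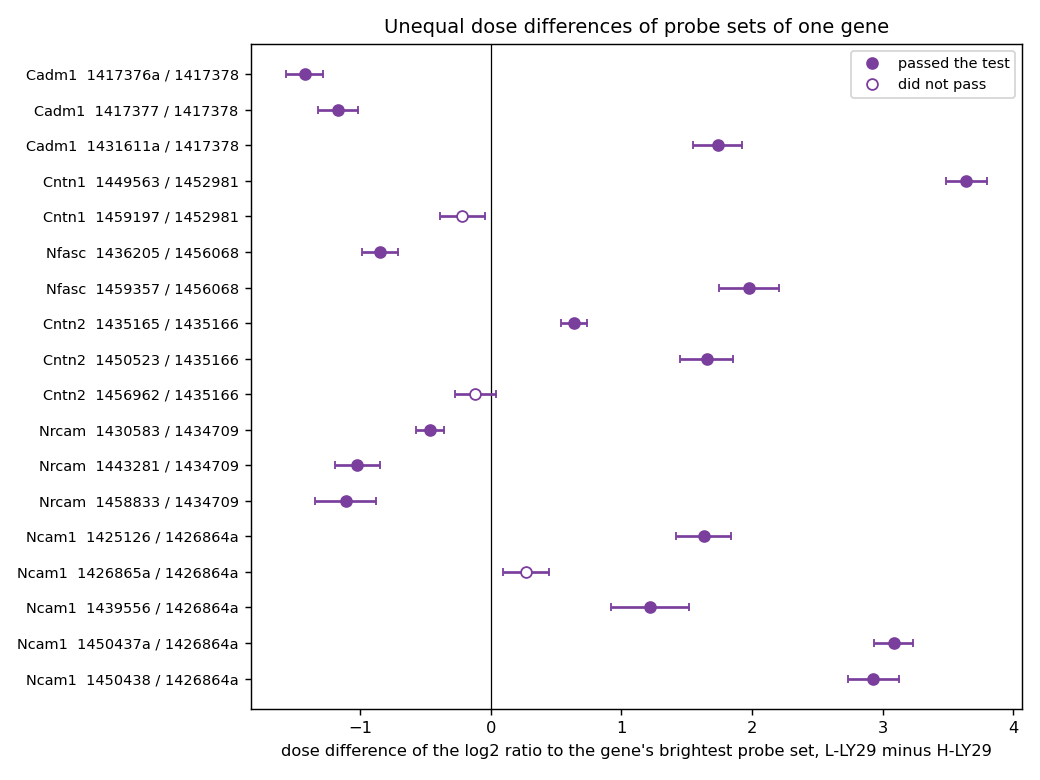
Dose difference, L-LY29 minus H-LY29, of the log2 ratio of each probe set to the brightest probe set of the same gene, with the standard error of the limma fit (3 and 2 arrays). Filled points passed the test and open points did not. The Cntn1 ratio at 3.64 and the Ncam1 ratios at 3.09 and 2.93 lie farthest from 0, and the last is that of 1450438_at, which lies near the filter.

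Markers of several cell types also differed between the doses. The mean of the astrocyte list (9 of 9 above the filter, 7 lower in L-LY29) was 9.02 to 9.76 in L-LY29, against 10.88 to 11.01 in H-LY29. That of meningeal fibroblasts (10 of 10, 8 lower) was 7.29 to 7.72 in L-LY29, against 9.18 to 9.69 in H-LY29, and that of pericytes and smooth muscle (7 of 9 above the filter, 5 of the 9 lower) was 6.05 to 6.48 in L-LY29, against 7.31 to 7.37 in H-LY29. That of Schwann cells (4 of the 5 on the array above the filter, 3 of them lower) was 6.71 to 7.15 in L-LY29, against 7.91 to 7.93 in H-LY29. These moved in the direction of Ncam1, Nfasc, Cntn2 and Cadm1. The list of neurons and retinal ganglion cells (10 of 12 above the filter, 9 of the 12 higher) was 6.70 to 6.75 in L-LY29, against 5.95 to 6.20 in H-LY29, in the direction of Cntn1 and Cadm4. In that direction too, the microglia list (9 of 9 above the filter, 7 higher) was 9.20 to 9.34 in L-LY29, against 8.21 to 8.46 in H-LY29. The endothelial list (7 of 8 above the filter, 6 of the 8 higher) was 6.61 to 6.96 in L-LY29, against 6.18 to 6.31 in H-LY29. The ocular surface epithelium list, given above, was also in the direction of Cntn1 and Cadm4 (9 of 11 higher). The progenitor list (9 of 9, 6 lower) was 8.06 to 8.33 in L-LY29, against 8.43 to 8.72 in H-LY29. It includes Olig2 and Sox10, which the study used to mark oligodendrocyte lineage cells in general, so its mean is not that of progenitors alone. The part of these cell types in the adhesion genes' differences was not tested.

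Genes that act with the adhesion proteins were counted in lists by role, and each count is a description to be read beside the 27.1% higher and 46.6% lower of all genes. Of 12 tested genes of the node and the axon initial segment, 4 were higher in L-LY29, 6 lower and 2 did not pass, near those shares, with a median of −0.48. Among the lower ones, Scn2b, named after its values were seen, passed the filter only through H-LY29. It averaged 4.67 in L-LY29, under the filter, and 6.01 in H-LY29. Sptbn4, the spectrin that links ankyrin G to the nodal cytoskeleton, averaged 8.90 ± 0.18 in L-LY29 and 5.91 ± 0.31 in H-LY29 (SD, n = 3 and 2; difference 2.99, adjusted p = 1.33e-04). Tnr, Bcan and Hapln2, matrix components of central nodes, were higher by 0.84, 0.48 and 0.81 (adjusted p 0.0144 to 0.0399), and Bcan was lower with its second brightest probe set (−1.49). These 3 calls were not stable. Hapln2 was at 0.40 and did not pass without H-LY29 replicate 1 (adjusted p = 0.115), nor without any of the L-LY29 arrays (0.0757 to 0.112). Bcan did not pass without H-LY29 replicate 1 (0.0986) or 2 (0.200) or without L-LY29 replicate 1 (0.0924) or 3 (0.0874), and Tnr did not pass without H-LY29 replicate 2 (0.0937) or without L-LY29 replicate 3 (0.0524) or 2, where its adjusted p lay just above the threshold. The proteoglycan Ncan averaged 5.79 ± 0.85 in L-LY29 and 10.31 ± 0.39 in H-LY29 (−4.52, adjusted p = 0.00102), and Vcan was also lower (−1.89, adjusted p = 0.00473), but not past the threshold without H-LY29 replicate 1 (0.0744) or replicate 2 (0.0611). Scn8a, the main sodium channel of mature nodes, was lower by −1.98 (adjusted p = 0.00304; −0.78 and 0.149 with the second brightest probe set), and Kcnk2, a background potassium channel of nodes, by −1.05 (adjusted p = 0.00428). The genes that did not pass were Ank3, encoding ankyrin G (0.20, adjusted p = 0.0835), and Kcnq3 (0.087, adjusted p = 0.287), named after their values were seen. Without H-LY29 replicate 1 this list had 3 lower genes, and without L-LY29 replicate 1, 2 or 3 it had 2, 2 and 1 higher genes.

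Of 21 tested genes of the paranodal and juxtaparanodal scaffold, 8 were higher in L-LY29, 6 lower and 7 did not pass, with a median of 0.091. The spectrins Sptbn1 and Sptan1, which lie under the paranodal membrane, were higher by 1.29 (SE 0.11, adjusted p = 3.32e-04) and 0.54 (SE 0.050, adjusted p = 4.61e-04), each with all its tested probe sets called higher (5 and 2). The scaffold gene Mpp6 and the polarity gene Pard3 were higher by 0.82 and 1.30. With the second brightest probe set Pard3 was lower (−0.49, adjusted p = 0.0276), and Mpp6 changed sign but did not pass (−0.25, adjusted p = 0.124). Ank2, encoding the paranodal ankyrin B, averaged 9.02 ± 0.21 in L-LY29 and 12.17 ± 0.20 in H-LY29 (−3.15, adjusted p = 7.83e-05). Of the 4 tested probe sets of Ank2, 3 were called lower and 1 higher in L-LY29. Dlg2, a scaffold of juxtaparanodal potassium channels, averaged 3.97 ± 0.16 in L-LY29 and 8.28 ± 0.26 in H-LY29 (−4.31, adjusted p = 5.32e-05), and thus passed the filter only through H-LY29. Mpp3, counted as higher and named after its values were seen, passed the filter only through L-LY29. It averaged 5.22 in L-LY29 and 4.55 in H-LY29. Adam23, encoding a receptor of LGI proteins, and Lgi4, encoding a secreted LGI protein, were lower by −2.69 (adjusted p = 1.04e-04) and −3.11 (adjusted p = 4.02e-04).

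Of 20 tested genes of related immunoglobulin and contactin families, 5 were higher in L-LY29, 10 lower and 5 did not pass, with a median of −0.66. Mag, the inner-loop receptor of myelin, averaged 11.98 ± 0.067 in L-LY29 and 11.09 ± 0.21 in H-LY29 (0.89, adjusted p = 9.73e-04). Cadm3, encoding an axonal partner of Cadm4 in peripheral nerve, was higher by 1.22 (SE 0.18, adjusted p = 0.00255), Ncam2 by 0.78 and Nectin3 by 0.88. With the second brightest probe set Cadm3 and Ncam2 were lower (−0.39 and −1.28), and Nectin3 changed sign but did not pass (−0.21, adjusted p = 0.362). The fifth higher gene, Igsf8 (0.58, adjusted p = 0.00267), is named after its values were seen. Alcam, an adhesion molecule of axons and many other cells, averaged 7.60 ± 0.20 in L-LY29 and 12.12 ± 0.19 in H-LY29, a 23.1-fold lower mean in L-LY29 (−4.53, adjusted p = 4.69e-05). Igsf11, the endothelial and pericyte gene Mcam and the GPI-anchored Ntm were lower by −1.71, −1.75 and −2.12 (adjusted p 5.93e-05 to 7.42e-05).

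Of 24 tested ligands, modifying enzymes and partners, 4 were higher in L-LY29, 12 lower and 8 did not pass, with a median of −0.34. Fyn, the kinase that acts downstream of contactin 1 and L1 family proteins in oligodendrocytes, averaged 10.72 ± 0.057 in L-LY29 and 9.49 ± 0.14 in H-LY29 (1.23, adjusted p = 1.57e-04). The Nogo receptor gene Rtn4r and the Nogo gene Rtn4 were higher by 0.97 and 0.22, though Rtn4 did not pass with its second brightest probe set (0.13, adjusted p = 0.402), and St8sia2, which attaches polysialic acid to the product of Ncam1, by 1.18 (adjusted p = 8.73e-04). Its 1 probe set averaged 5.39 in L-LY29 and 4.21 in H-LY29, so that it passed the filter through L-LY29. Sema3a, counted as lower and named after its values were seen, passed the filter only through H-LY29. It averaged 4.62 in L-LY29 and 6.55 in H-LY29. Notch1, a receptor that contactin 1 can bind, was lower by −2.08 (SE 0.19, adjusted p = 4.32e-04), N-cadherin (Cdh2) by −2.85, the contactin-binding phosphatase gene Ptprg by −4.03 and the sheddase gene Adam17 by −1.04. With the mean of its probe sets Adam17 did not pass (−0.092, adjusted p = 0.388).

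As gene groups of the same contacts, structural myelin genes and axonal and neuronal genes, mostly of the cytoskeleton, were set beside the adhesion genes. Of 15 myelin genes 6 were higher in L-LY29 and 4 lower, with a median of 0.18. Mal (1.12), Ermn (0.62) and Mobp (0.55) were among the higher ones, and Pllp (−1.28), Mog (−1.13), Cldn11 (−0.32) and Opalin (−0.69) were the lower ones. Of the 5 tested probe sets of Mobp, 4 were called higher and 1 lower. Of 14 axonal and neuronal cytoskeleton genes 10 were higher and 4 lower, with a median of 1.27. Map1b (2.45), Stmn3 (1.25), Nefl (3.54) and Gap43 (3.01) were among the higher ones, and Uchl1 (−1.67), Map1a (−1.02), Tubb3 (−0.999) and Stmn2 (−0.95) were the lower ones. Syt1, counted as higher and named after its values were seen, passed the filter only through L-LY29. It averaged 5.73 in L-LY29 and 4.51 in H-LY29. Map1b and Stmn2 changed sign with their second brightest probe sets (−0.56 and 0.27), as did Opalin (0.31). Cldn11 did not pass with equal array medians (−0.11, adjusted p = 0.0808), and Stmn2, with an adjusted p of 0.0485, lay at −0.42 and did not pass without H-LY29 replicate 1 (adjusted p = 0.0884). It also did not pass without any of the L-LY29 arrays (0.0921 to 0.129), under quantile normalization (−0.43, adjusted p = 0.275), with equal array medians (0.0769), or with the mean of its probe sets (−0.34, adjusted p = 0.325). The lists share genes and are not separate evidence. Nefl, Nefm, Nefh, Stmn2, Snap25 and Syt1 also belong to the list of neurons and retinal ganglion cells above. Mag, Mog, Omg and Pllp are also counted in the lists by role above. No test compared these lists with the adhesion genes.

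**Figure D4:**
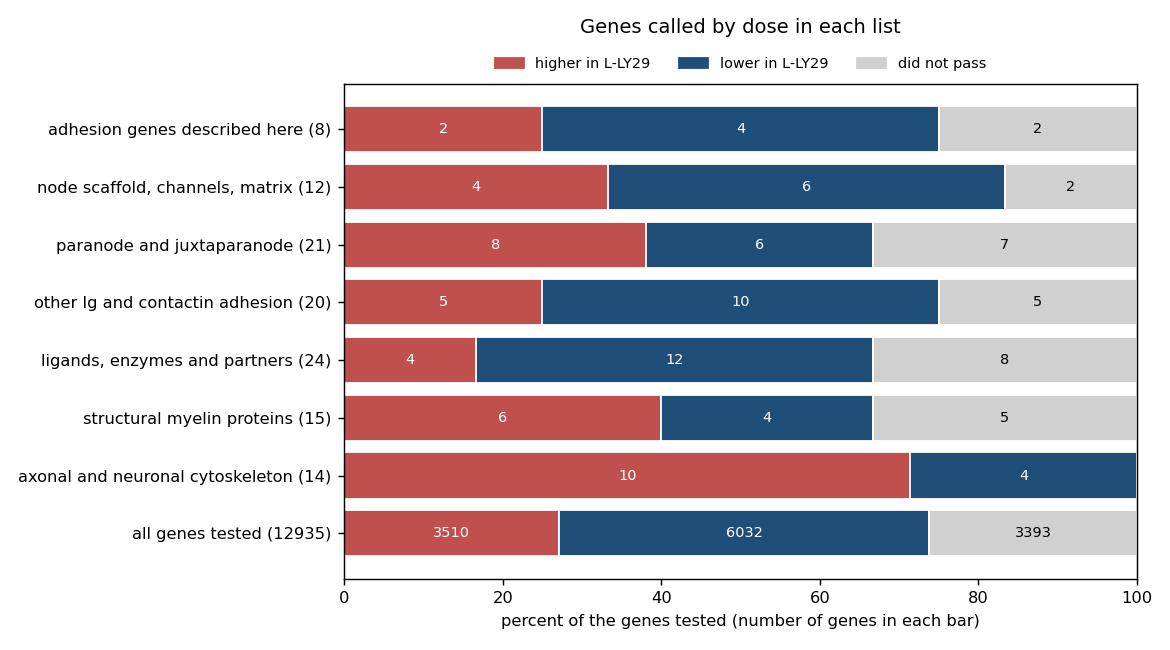
Percent of tested genes that were higher in L-LY29 (red), lower in L-LY29 (blue) or did not pass (grey) in each list, with the number of genes in each bar and the number tested in brackets. The 8 adhesion genes split into 2 higher, 4 lower and 2 that did not pass, beside 3510 higher and 6032 lower of all 12935 genes.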

How the data were processed

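RNA of cultured optic nerves was measured on 5 arrays, grouped by their labels into L-LY29 (3 arrays) and H-LY29 (2 arrays). The values deposited by the authors are log2 signals, for which the methods name MAS-5 normalisation in Agilent GeneSpring. Many values were identical on several arrays, and whether a further step caused this is not known. The values were used unchanged. Of 45101 probe sets, 34958 name 1 gene, 932 several and 9211 none in the annotation used here. After control probe sets were left out, 34945 remained. Probe sets with a mean under the 40th percentile (4.77) were not tested. Doses were compared with limma 3.58.1 in R 4.3.3 (lmFit, eBayes with an intensity trend, two-sided, Benjamini-Hochberg, called under 0.05), over genes (brightest probe set), over probe sets, and over ratios of probe sets within genes. P-values of single probe sets are from the fit over probe sets. The fits were tested on simulated data. Suffixes _a, _s and _x mark probe sets that can bind several transcripts of a gene, or other genes. The adhesion genes and all lists were chosen with earlier results of these data known. Named are all adhesion genes, and from each list up to 4 called genes per direction with the smallest adjusted p and no overlap between the doses. Alternatives were other filters, a floor at the 10th percentile, quantile normalization, equal medians, no trend, a replicate block, each array left out, and other probe sets for a gene. The number of arrays limits the precision.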

Additional observations from a re-analysis of the deposited data

How the results depend on the processing

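Of the 8 tested adhesion genes, 5 kept their call under every alternative that gave a value, and the exceptions were L1cam, Nrcam and Cadm1, given above. Of their 26 tested probe sets 15 kept their call and 11 did not, and of the 18 ratios 16 did. With an array left out, 8631 to 9499 genes were called, 6 to 7 of them adhesion genes. Without a filter more genes were tested, and 5299 were higher, against 3510, while 6478 were lower, against 6032. The higher count thus rose more than the lower one, and the median difference over all genes was −0.018, against −0.26. Why the dim probe sets moved these values was not tested. With a filter at the 60th percentile 5292 ratios were called, against 8264, with fewer tested. With the second brightest probe set, which only genes with several have, 4468 genes were called (1927 higher and 2541 lower) and 1 adhesion gene was higher, since Cadm4 has a single probe set. Signs reversed with the mean of the probe sets for Bcan (−0.51), Ncam2 (−0.25) and Nectin3 (−0.92). They reversed with the second brightest probe set for Bcan (−1.49), Mpp6 (−0.25), Pard3 (−0.49), Ncam2 (−1.28), Nectin3 (−0.21), Cadm3 (−0.39), Map1b (−0.56), Opalin (0.31) and Stmn2 (0.27). The cause was not tested. With the replicate number as a block 8359 genes were called, of which 6 were adhesion genes (2 higher, 4 lower), and no call of an adhesion gene or of its probe sets changed. The labels do not say that the numbers pair the arrays, and deviations of arrays with the same number correlated at 0.017 and 0.035. The deviations of the 2 H-LY29 arrays from their mean mirror each other by construction, so these correlations cannot decide whether the arrays are paired. In the block Tnr, Bcan, Hapln2, Rtn4 (adjusted p = 0.0596) and Stmn2 (0.0998) did not pass. Stmn2 and Hapln2 also did not pass without the filter (0.0629 and 0.0525), nor Stmn2 without the trend (0.0526). With few arrays and no control dose, dim probe sets such as that of Cntnap1 give no comparison.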

Other observations

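The promoters of 3 other adhesion genes were also read in RefSeq (GRCm38.p6). Each holds 1 GC box in the window before its most upstream start in the promoter table, which begins 223 bases before the start of L1cam, 104 bases before that of Nrcam and 27 bases before that of Cadm2, with 12, 25 and 10 CpG dinucleotides. The median promoter holds 6.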
